A study of Mus musculus with 9 samples.

Results

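The genes described here encode the folding machinery of the endoplasmic reticulum (ER) and the heat-shock proteins of the cytosol and mitochondria. They are 48 genes chosen by name, 26 of the ER, 19 of the cytosol or nucleus and 3 of mitochondria, out of 18193 genes with a probe set of their own on the arrays. Of these, 46 had a probe set annotated to that gene alone, and 43 reached a log2 intensity of 4 or more on at least 3 of the 9 arrays and were tested: all 26 ER genes, 14 cytosolic genes and the 3 mitochondrial genes. Hsp90ab1 and Hsf1 are not analysed here. Hspa1a, Hspb1 and Hspb8 stayed below log2 4 on all 9 arrays, at about 2.51 ± 0.01, 3.58 ± 0.01 and 2.36 ± 0.01 in unstimulated cells (SD, n = 3). The arrays measured total RNA of m-ICcl2, a C57BL/6 mouse line of small intestinal epithelium that came from fetal tissue and carries an SV40 large T antigen transgene in all 3 conditions; the labels do not name the promoter that drives it. Cells received no treatment (unstimulated), 100 ng/mL of lipopolysaccharide (LPS, an endotoxin from the outer membrane of Escherichia coli) for 6 h, or the same LPS for 6 h and then 90 h without it (tolerant in the series design, 96 h after LPS was first added). Each condition had 3 arrays, called biological replicates without a word on what was separate between them, so p-values measure only the spread between these samples. The labels give the unstimulated cells no time in culture, so for tolerant cells the effects of earlier LPS and of days in culture cannot be told apart.

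Proteins that enter the secretory pathway fold in the ER with help from BiP (the product of Hspa5) and its co-chaperones, from protein disulfide isomerases and from the lectin chaperones calnexin and calreticulin, and those that fail to fold are returned to the cytosol and degraded (ER-associated degradation, ERAD). When unfolded proteins build up, the sensors IRE1 (Ern1), ATF6 and PERK (Eif2ak3) start the unfolded protein response, in which the transcription factors XBP1 and cleaved ATF6 raise the genes of this machinery. Cytosolic HSP70 and HSP90 chaperones with their J-domain and other co-chaperones serve proteins made on free ribosomes, and heat-shock factor 1 raises many of their genes under protein damage. Intestinal epithelial cells, the secretory ones above all, are known to depend on the unfolded protein response for their upkeep.

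The sequence that ATF6 and XBP1 are known to use, the ER stress response element (ERSE), was looked for on both strands in the 300 bases around each gene's start (250 before and 50 after), taken from RefSeq on GRCm38.p6. Of the 48 genes 39 matched an entry by symbol, 22 of the ER, 15 of the cytosol and 2 of mitochondria. The ERSE letters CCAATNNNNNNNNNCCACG stood in the windows of Calr, Canx, Creld2, Dnajc3, Hsp90b1, Hspa5, Pdia6 and Syvn1, 8 of 22 ER genes, in 0 of 15 cytosolic genes, and in 39 of all 32851 windows (0.119%). The shorter ERSE-II, ATTGGNCCACG, stood in Dnajb11 and Herpud1 and in 12 of all windows (0.0365%). Shown here are 250 bases before the start of 6 ER genes whose levels the results below turn on, 5′ to 3′ along the gene, with the ERSE in capitals (in Herpud1 the ERSE-II, and in Hsp90b1 both ERSE matches). The windows lie at chr2:34771840-34772089, plus strand (Hspa5), chr10:86705445-86705694, minus strand (Hsp90b1), chr15:88819396-88819645, plus strand (Creld2), chr12:17266339-17266588, plus strand (Pdia6), chr14:118937682-118937931, plus strand (Dnajc3) and chr8:94386179-94386428, plus strand (Herpud1).
Hspa5: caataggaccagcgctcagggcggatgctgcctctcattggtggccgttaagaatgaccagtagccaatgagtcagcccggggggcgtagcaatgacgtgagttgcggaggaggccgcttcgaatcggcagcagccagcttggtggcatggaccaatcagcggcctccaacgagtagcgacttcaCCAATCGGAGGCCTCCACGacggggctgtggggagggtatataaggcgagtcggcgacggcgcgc
Hsp90b1: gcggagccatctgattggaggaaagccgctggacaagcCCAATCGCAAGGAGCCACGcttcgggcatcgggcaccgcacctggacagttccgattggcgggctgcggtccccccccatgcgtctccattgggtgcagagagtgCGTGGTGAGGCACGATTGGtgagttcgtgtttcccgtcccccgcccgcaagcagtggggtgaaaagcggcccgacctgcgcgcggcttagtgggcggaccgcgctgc
Creld2: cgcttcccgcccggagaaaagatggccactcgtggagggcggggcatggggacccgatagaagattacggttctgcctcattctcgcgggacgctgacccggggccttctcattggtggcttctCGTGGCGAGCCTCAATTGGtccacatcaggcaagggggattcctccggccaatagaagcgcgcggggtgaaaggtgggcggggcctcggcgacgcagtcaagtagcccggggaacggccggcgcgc
Pdia6: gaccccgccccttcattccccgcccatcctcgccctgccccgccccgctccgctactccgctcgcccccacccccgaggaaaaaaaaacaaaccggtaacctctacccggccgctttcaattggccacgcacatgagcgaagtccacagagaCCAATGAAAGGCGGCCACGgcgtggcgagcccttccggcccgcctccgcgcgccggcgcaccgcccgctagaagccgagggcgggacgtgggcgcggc
Dnajc3: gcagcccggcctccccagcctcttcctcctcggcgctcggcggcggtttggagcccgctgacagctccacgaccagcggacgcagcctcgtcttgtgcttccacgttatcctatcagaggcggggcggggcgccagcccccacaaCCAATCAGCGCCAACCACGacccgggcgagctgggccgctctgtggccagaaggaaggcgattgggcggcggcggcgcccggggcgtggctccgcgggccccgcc
Herpud1: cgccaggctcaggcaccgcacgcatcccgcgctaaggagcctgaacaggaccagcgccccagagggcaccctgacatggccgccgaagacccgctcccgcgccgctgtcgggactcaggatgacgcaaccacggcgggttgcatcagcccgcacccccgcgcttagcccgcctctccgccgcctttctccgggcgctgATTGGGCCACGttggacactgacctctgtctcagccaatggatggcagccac

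In Hspa5 the element ended 47 bases before the start, in Pdia6 80 and in Dnajc3 87 bases before it, and Creld2 carried it on the opposite strand. Hsp90b1 held 1 match on each strand. The UPRE core GACGTG, which XBP1 is known to bind, was common: 6.38% of all windows held it, among them those of Hspa5, P4hb and Pdia6 and of the cytosolic genes Dnajb1, Hspa4 and Stip1. The heat-shock element, searched as GAANNTTCNNGAA, stood in 0.603% of all windows, in 0 of 22 ER genes, and in Chordc1, Hsph1 and both mitochondrial genes with an entry, Hspd1 and Hspe1. Its match before the start of Hspe1 reads gaaccttccggaa, 84 to 72 bases before the start, and that of Chordc1 gaacgttcgggaa, which spans the start. The matches of Hspd1 and Hspe1 are reverse complements of each other, so these genes may share a single element. A match is a description of letters and not a measured binding site.

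The arrays of replicate 1 stood apart in all 3 conditions. Their deviations from the condition means correlated across genes at 0.737 to 0.844 with each other and at -0.743 to -0.375 with those of replicates 2 and 3. Because the 3 deviations of a condition sum to 0, the negative values largely follow from the positive ones and are no separate evidence. The log2 difference between 3′ and 5′ probe sets overlapped for Gapdh (-0.20 to -0.06 on replicate 1 arrays, -0.24 to -0.16 on the other 6). For beta-actin it was 0.40 to 0.72 on replicate 1 arrays, against 1.02 to 1.38 on the other 6. Counts are therefore also given from a fit blocked on replicate number and from a fit without replicate 1. Epithelial markers were partly present: 7 of 12 passed the level minimum, with Krt8 at 12.72 to 13.51 and Vil1 at 7.56 to 8.29 (log2), whereas Cdh1, Cdx1, Cdx2, Cldn7 and Krt19 lay below log2 4 on all 9 arrays. Their summed intensity ran from 19793 to 23579 in unstimulated, 18262 to 24297 in 6 h LPS and 25544 to 30138 in tolerant cells, but single markers went both ways. Hnf4a stood at 9.62 ± 0.43 in unstimulated and 7.82 ± 0.34 in tolerant cells, Epcam at 3.03 ± 0.19 and 5.64 ± 0.40, and Cdh17 at 5.70 ± 0.49 and 7.74 ± 0.33 (log2, SD, n = 3). Of 6 leukocyte markers 2 passed, Csf1r and Spi1, and their sum over all 6 was lower in tolerant cells (282 to 659, against 1179 to 2403 in unstimulated and 714 to 2066 in 6 h cells), while the defining Ptprc, Cd3e, Lyz2 and Itgam lay below log2 4 on all 9 arrays. The part of these markers in the results below was not tested. No fibroblast or endothelial marker of 6 and 4 passed. These are bulk samples, so fewer cells of a type and less RNA per cell cannot be told apart.

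After 6 h of LPS no gene of the group passed the test without the replicate block. Across all 9431 genes limma called 6 higher (0.0636% of those tested) and 0 lower; among the members the count was 0 of 26 ER genes, 0 of 14 cytosolic and 0 of 3 mitochondrial genes, and 5, 4 and 1 of them had an unadjusted p below 0.05 (2163 of all genes did). With the block, 5 ER genes were higher and 0 lower, against a background of 11.6% higher and 12.5% lower (24% in all): Hsp90b1, Dnajb9, Dnajc3, Pdia3 and Canx. The block also called 3 cytosolic genes higher (Hspa4l, Chordc1 and Dnaja1), 2 lower (Hspa1b and Dnajb1) and mitochondrial Hspd1 higher. From replicates 2 and 3 only, 0 members were called, with 0.0848% of all genes. The arrays of 4 ER genes lay wholly above the unstimulated ones and 0 wholly below, where 12.9% and 13.2% of all genes did so. The median log2 change was -0.02 for ER, 0.13 for cytosolic and -0.11 for all genes tested. Without 6 h LPS replicate 3 the counts became 1 ER gene (Hsp90b1, adjusted p = 0.04) and 3 cytosolic genes (Hsp90aa1, Hspa4l and Chordc1, adjusted p = 0.0323, 0.0232 and 0.0369), among 696 of all genes (503 higher and 193 lower).

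In tolerant cells the ER genes were mostly lower than in unstimulated cells and the called cytosolic genes were higher. Of 26 ER genes 7 fell (Sdf2l1, Dnajb11, Pdia6, Creld2, Manf, Herpud1 and Sel1l) and 2 rose (Dnajb9 and Atf6), against 12.2% of all genes lower, 14% higher and 26.2% in either direction. The log2 change was below 0 in 20 of 26, with a median of -0.46 where that of all genes was -0.07. Of 14 cytosolic genes 4 were called higher (Hspa4l, Hsp90aa1, Hspa4 and Chordc1) and 0 lower, with a median of -0.09. The direction of Hspa4 depended on its probe set. With the mean of probe sets 3 cytosolic genes were higher and 1 lower, as were 1433 and 1274 of all 9432 genes. None of 3 mitochondrial genes passed, and 1 had an unadjusted p below 0.05. With the replicate block, 15 ER genes were lower and 4 higher, where 25.9% and 22.7% of all genes were (48.6% in all), and 2 cytosolic genes joined on the lower side. From replicates 2 and 3 only, 11 ER genes were lower and 3 higher, against 19.7% and 18.5% of all genes (38.3% in all), and the cytosolic genes split into 2 and 2. Tolerant arrays lay wholly below the unstimulated ones in 9 ER genes and wholly above in 3, where 24.5% and 22.6% of all genes did so. With array medians set equal the ER split was 7 lower and 1 higher, and after a further quantile normalization 7 and 0. Over all genes the split was 1275 lower and 1212 higher of 9431 with medians equal. After quantile normalization it was 1298 and 1089 of 9446. Without a level minimum the calls of Dnajb9, Pdia6, Atf6, Hsp90aa1 and Chordc1 were lost (adjusted p from 0.0515 for Hsp90aa1 to 0.0886 for Chordc1). The ER count was 6 without unstimulated replicate 2, tolerant replicate 2 or tolerant replicate 3, and the cytosolic count 2 without unstimulated replicate 1 or 2 or tolerant replicate 2 or 3. Over all genes the count of 2470 became 1838 and 1515 without unstimulated replicate 1 and 2. It became 1400 and 1543 without tolerant replicate 2 and 3.

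Set against cells at 6 h of LPS, tolerant cells had 9 of 26 ER genes lower and 0 higher, where 6.02% of all genes were lower, 7.1% higher and 13.1% either. These were Hspa5, Sdf2l1, Dnajb11, Dnajc3, Pdia6, Creld2, Manf, Herpud1 and Sel1l. The median ER change was -0.53 with 21 of 26 below 0, beside 0.01 for all genes. Hspa4 and Hspa4l rose among 14 cytosolic genes, whose median was -0.11, and none of 3 mitochondrial genes passed. With the block 14 ER genes were lower and 1 higher (15.7% and 16% of all genes, 31.7% in all), and from replicates 2 and 3 only 13 and 1 (11.4% and 11.2%, 22.5% in all). In 11 ER genes the tolerant arrays lay wholly below those at 6 h and in 2 wholly above, where 15.4% and 15.9% of all genes did so. The count of 9 was 4 without 6 h LPS replicate 2, 5 without 6 h LPS replicate 3, and 4, 2 and 1 without tolerant replicate 1, 2 and 3. Over all 9431 genes the count of 1238 became 853 and 990 without 6 h LPS replicate 2 and 3. It became 766, 677 and 704 without tolerant replicate 1, 2 and 3. Without tolerant replicate 2 or 3 the ER genes thus stood near or below the share of all genes called in either direction. The ER calls left were all lower, beside 297 and 299 of all 9431 genes called lower without tolerant replicate 2 and 3. Calls against 6 h were lost without a level minimum for Sdf2l1, Dnajc3 and Manf (adjusted p = 0.0737, 0.0556 and 0.0792), and in a fit of those 2 groups alone for Pdia6, Manf, Herpud1 and Hspa4 (adjusted p = 0.0607, 0.0673, 0.0656 and 0.0530). Both comparisons with tolerant cells use the same 3 tolerant arrays and so are not independent of each other.

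**Figure D1:**
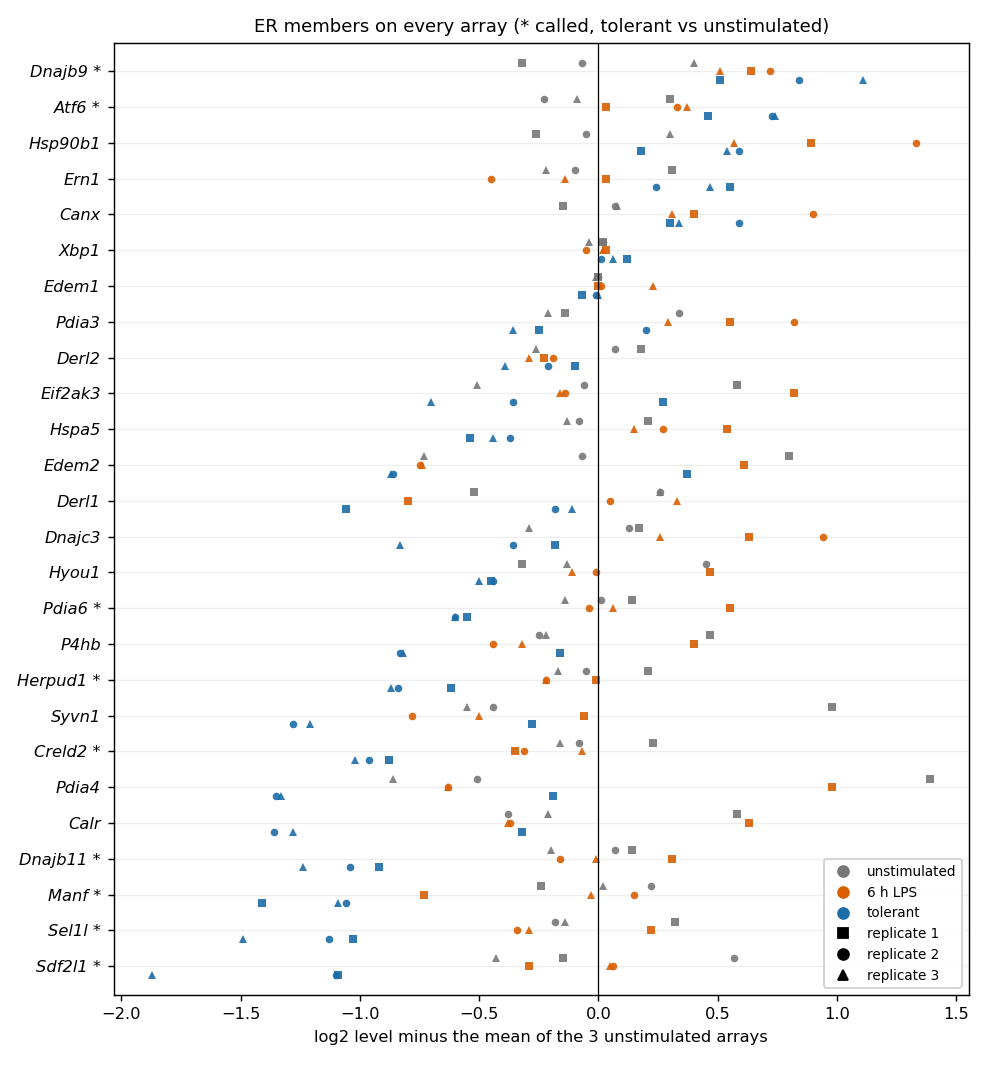
Log2 level of the 26 ER genes on each of the 9 arrays, minus the mean of the 3 unstimulated arrays of that gene (x axis); colours mark the condition, shapes the replicate number, and an asterisk the 9 genes called between tolerant and unstimulated cells without the block. Genes are ordered by their tolerant change, from Dnajb9 at 0.81 to Sdf2l1 at -1.35.

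BiP, the HSP70 of the ER lumen, binds unfolded chains and holds the stress sensors inactive. Its gene Hspa5 read 13.33, 13.04 and 12.99 on unstimulated replicates 1, 2 and 3, 13.66, 13.39 and 13.27 at 6 h and 12.58, 12.75 and 12.68 in tolerant cells (log2 intensity; replicates keep this order throughout). All 3 tolerant arrays lay below all 6 others, while the unstimulated and 6 h ranges overlapped. Hspa5 fell from 6 h to the tolerant state by 1.7-fold (log2 change -0.77 ± 0.17, SE; adjusted p = 0.0178), and the call was lost without tolerant replicate 1, 2 or 3 (adjusted p = 0.0611, 0.0542 and 0.0624, in that order). Against unstimulated cells its log2 change was -0.45 (adjusted p = 0.0797, or 0.0305 with the replicate block, 0.0496 without 6 h LPS replicate 1, and 0.0365 with trended and robust eBayes), and at 6 h it was 0.32 (adjusted p = 0.289). Its 2 further probe sets changed by -0.84 to -0.31 in tolerant against unstimulated cells; here and throughout, further probe sets are those of the gene that reached the level minimum.

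GRP94 (Hsp90b1) is the HSP90 of the ER. It read 11.32, 11.53 and 11.88 unstimulated, 12.47, 12.91 and 12.15 at 6 h and 11.76, 12.17 and 12.12 in tolerant cells, so that the 6 h arrays lay above all unstimulated ones and the tolerant range overlapped both. The 6 h change of 0.93 ± 0.24 (SE) passed with the block (adjusted p = 0.115, or 0.0319 with the replicate block), and the tolerant change against unstimulated was 0.44 (adjusted p = 0.208). Hyou1, the HSP110-type exchange factor of BiP, read 7.22 to 7.99 unstimulated, 7.43 to 8.01 at 6 h and 7.04 to 7.10 in tolerant cells. The tolerant arrays of Hyou1 were the lowest of the 9, and its changes of -0.46 and -0.58 against the other conditions did not pass (adjusted p = 0.181 and 0.149).

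The J-domain co-chaperones of BiP, which deliver clients to it and trigger its ATPase, were called in opposite directions. Dnajb11 (ERdj3) read 9.11, 9.04 and 8.77 unstimulated, 9.28, 8.81 and 8.96 at 6 h and 8.05, 7.93 and 7.73 in tolerant cells, with the tolerant arrays separate from the 6 others. It fell 2.1-fold against unstimulated cells (log2 change -1.07 ± 0.18, SE; adjusted p = 0.00377) and 2.16-fold against 6 h (adjusted p = 0.00501), and both calls held when any 1 array was left out. Sdf2l1, which encodes a partner of ERdj3, read 5.63, 6.35 and 5.35, then 5.49, 5.84 and 5.83, then 4.69, 4.68 and 3.91 in tolerant cells, where 1 of 3 arrays lay below log2 4. It fell 2.55-fold against unstimulated cells (-1.35 ± 0.30, SE; adjusted p = 0.0119) and 2.45-fold against 6 h (adjusted p = 0.0234). The second of these calls was lost without 6 h LPS replicate 2 or 3 or tolerant replicate 2 or 3 (adjusted p = 0.0727, 0.0688, 0.0505 and 0.0799, in that order).

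Dnajb9 (ERdj4), a J protein tied to IRE1 and ERAD, was the co-chaperone gene that rose. Its arrays read 8.61, 8.86 and 9.33 unstimulated, 9.57, 9.65 and 9.44 at 6 h and 9.44, 9.77 and 10.04 in tolerant cells, so both later groups lay above the unstimulated one and overlapped each other. Dnajb9 rose 1.76-fold in tolerant against unstimulated cells (0.81 ± 0.23, SE; adjusted p = 0.0279), a call lost without unstimulated replicate 1 or 2 or tolerant replicate 2 or 3 (adjusted p = 0.0862, 0.092, 0.088 and 0.106, in that order), and under both rescalings (0.0519 after quantile normalization and 0.0524 with medians set equal). Its change at 6 h was 0.62 (adjusted p = 0.159, or 0.0425 with the replicate block). Dnajc3 (P58IPK), which also inhibits PERK, had its highest levels at 6 h: 9.03, 8.99 and 8.57 unstimulated, 9.49, 9.80 and 9.12 at 6 h and 8.68, 8.50 and 8.03 in tolerant cells. The 6 h arrays of Dnajc3 lay above all others. Dnajc3 fell 2.1-fold from 6 h to the tolerant state (-1.07 ± 0.24, SE; adjusted p = 0.0212), a call lost without 6 h LPS replicate 2 or tolerant replicate 2 or 3 (adjusted p = 0.0709, 0.0594 and 0.0796, in that order). Against unstimulated cells the change was 0.61 at 6 h (adjusted p = 0.183, or 0.0319 with the replicate block) and -0.46 in tolerant cells (adjusted p = 0.202, or 0.0217 with the replicate block), where its 4 further probe sets ranged over -0.44 to 0.16.

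Creld2 and Manf encode small proteins of the ER lumen that are known targets of the unfolded protein response and are in part secreted. Creld2 read 11.81, 11.50 and 11.42 unstimulated, 11.23, 11.27 and 11.51 at 6 h and 10.70, 10.62 and 10.56 in tolerant cells, and Manf read 12.02, 12.48 and 12.28, 11.53, 12.41 and 12.23 and 10.85, 11.20 and 11.17. In both the 3 tolerant arrays were the lowest of the 9. Creld2 fell 1.93-fold against unstimulated cells (-0.95 ± 0.16, SE; adjusted p = 0.00386) and 1.63-fold against 6 h (adjusted p = 0.0222), the latter lost without 6 h LPS replicate 2 or 3 or tolerant replicate 1, 2 or 3 (adjusted p = 0.0533, 0.0615, 0.0538, 0.08 and 0.0871, in that order). Manf fell 2.28-fold against unstimulated (-1.19 ± 0.25, SE; adjusted p = 0.00881) and 1.98-fold against 6 h (adjusted p = 0.0315). For Manf the call against 6 h was lost without unstimulated replicate 3, 6 h LPS replicate 2 or 3 or tolerant replicate 1, 2 or 3 (adjusted p = 0.0517, 0.1, 0.0917, 0.103, 0.0757 and 0.0788, in that order). Both calls against unstimulated cells held with any 1 array left out.

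**Figure D2:**
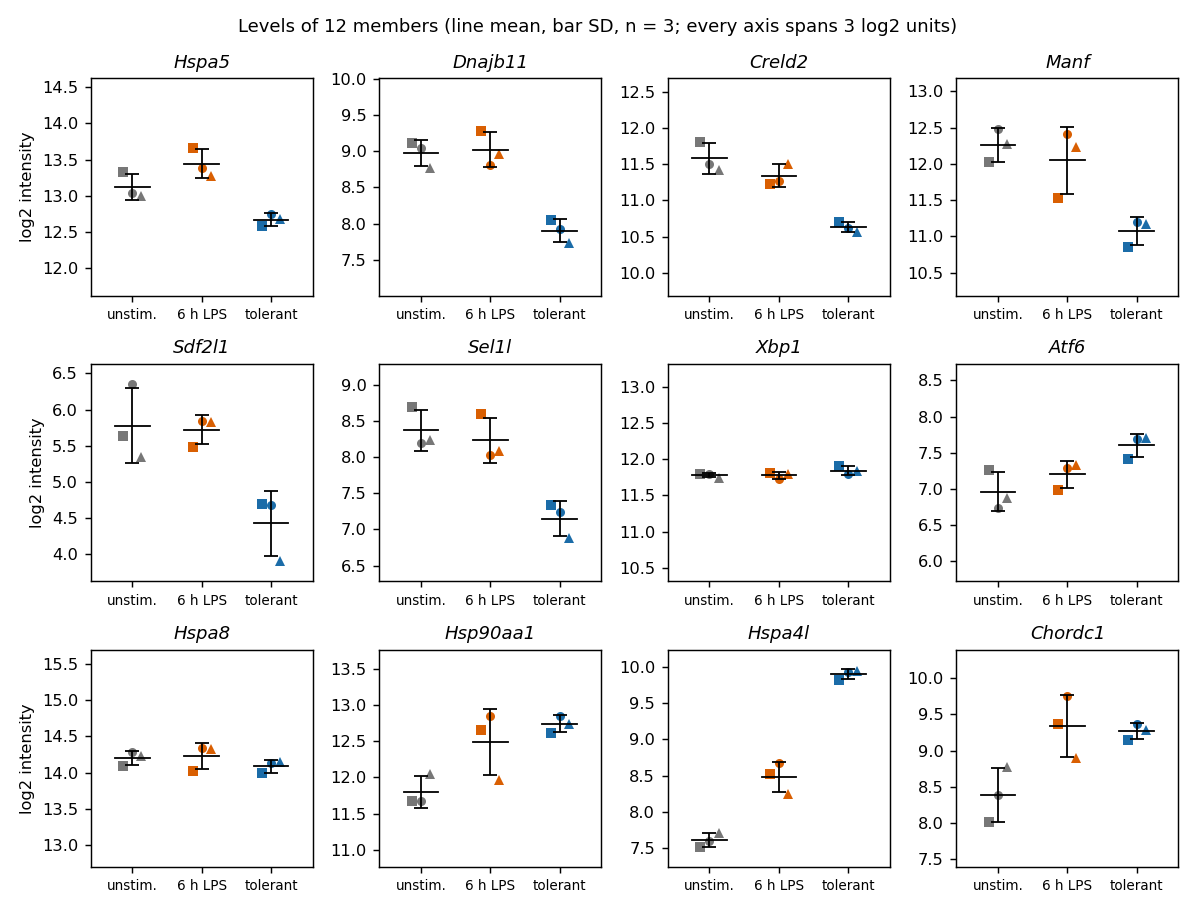
Log2 intensity (y axis, each panel spanning 3 log2 units) of 12 genes on the 9 arrays by condition, with the mean as a line and the SD as a bar (n = 3); square, circle and triangle are replicates 1, 2 and 3. Dnajb11, Creld2, Manf, Sdf2l1 and Sel1l sit lowest in tolerant cells, Xbp1 stays between 11.73 and 11.90 on all arrays, and Hspa4l is highest in tolerant cells.

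The disulfide isomerases, which form and shuffle disulfide bonds, were called lower in 1 of 4 cases with all 9 arrays and no block. Pdia6 (P5) read 10.98, 10.85 and 10.70 unstimulated, 11.39, 10.80 and 10.90 at 6 h and 10.29, 10.24 and 10.24 in tolerant cells, with the tolerant arrays below all others. It fell 1.51-fold against unstimulated cells (-0.59 ± 0.18, SE; adjusted p = 0.0435) and 1.71-fold against 6 h (adjusted p = 0.0248). The first call was lost without unstimulated replicate 1, 2 or 3 or tolerant replicate 1, 2 or 3 (adjusted p = 0.118, 0.116, 0.0604, 0.079, 0.125 and 0.12, in that order), and the second without tolerant replicate 1, 2 or 3 (adjusted p = 0.0644, 0.0858 and 0.0841, in that order). Pdia3 (ERp57), which works with the lectin chaperones, read 10.92, 11.40 and 10.85, then 11.61, 11.88 and 11.35 at 6 h, then 10.81, 11.26 and 10.70. The 6 h arrays of Pdia3 were above their same-numbered partners in both other conditions. Its change was 0.56 at 6 h (adjusted p = 0.194, or 0.0319 with the replicate block), -0.69 from 6 h to tolerant (adjusted p = 0.0871, or 0.00328 with the replicate block) and -0.13 between tolerant and unstimulated cells (adjusted p = 0.721).

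In Pdia4 (ERp72) and P4hb (PDI itself) replicate 1 read far above replicates 2 and 3 in every condition. Pdia4 read 9.37, 7.47 and 7.12 unstimulated, 8.96, 7.35 and 7.35 at 6 h and 7.79, 6.63 and 6.65 in tolerant cells, and P4hb read 12.14, 11.42 and 11.45, 12.07, 11.23 and 11.35 and 11.51, 10.84 and 10.85. Within each replicate number the tolerant array was the lowest, while the ranges of the conditions overlapped. Tolerant minus unstimulated was -0.96 for Pdia4 (adjusted p = 0.316, or 0.00511 with the replicate block) and -0.60 for P4hb (adjusted p = 0.182, or 0.00352 with the replicate block), and tolerant minus 6 h was -0.86 (adjusted p = 0.455, or 0.0126 with the replicate block) and -0.48 (adjusted p = 0.362, or 0.014 with the replicate block). Replicates 2 and 3 alone gave adjusted p = 0.0188 and 0.0129 against unstimulated cells and 0.0225 and 0.0448 against 6 h.

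Of the lectin chaperones, which hold glycoproteins through repeated folding cycles, calreticulin and calnexin differed in direction. Calr read 13.03, 12.07 and 12.24 unstimulated, 13.08, 12.08 and 12.07 at 6 h and 12.13, 11.09 and 11.17 in tolerant cells, replicate 1 again being the highest of each condition. Its tolerant change was -0.98 ± 0.39 against unstimulated (SE; adjusted p = 0.0994, or 0.000443 with the replicate block, 0.0418 without tolerant replicate 1, and 0.00289 from replicates 2 and 3 only) and -0.95 against 6 h (adjusted p = 0.161, or 0.000806 with the replicate block, and 0.00544 from replicates 2 and 3 only), and its 2 further probe sets changed by -1.01 to -0.95 against unstimulated cells. Canx read 11.20, 11.42 and 11.43, then 11.75, 12.25 and 11.66 at 6 h, then 11.65, 11.94 and 11.69, so that all unstimulated arrays were below all others. The changes of Canx against unstimulated cells were 0.54 at 6 h (adjusted p = 0.155, or 0.0371 with the replicate block) and 0.41 in tolerant cells (adjusted p = 0.153, or 0.0416 with the replicate block), with -0.19 to 0.76 on its 2 further probe sets in the latter.

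Among the 7 ERAD genes 2 fell in tolerant cells, 3 more passed with the block and 2 did not pass either way. Herpud1 (HERP), a membrane protein that assembles the retrotranslocation complex, read 10.68, 10.42 and 10.30 unstimulated, 10.46, 10.25 and 10.25 at 6 h and 9.85, 9.63 and 9.60 in tolerant cells. Sel1l, the adaptor of the HRD1 ubiquitin ligase, read 8.69, 8.19 and 8.23, 8.59, 8.03 and 8.08 and 7.34, 7.24 and 6.88. In both genes the 3 tolerant arrays lay below the 6 others, and the unstimulated and 6 h arrays overlapped. Herpud1 fell 1.71-fold against unstimulated cells (-0.77 ± 0.16, SE; adjusted p = 0.00919) and 1.54-fold against 6 h (adjusted p = 0.0359), the latter lost without unstimulated replicate 2, 6 h LPS replicate 1, 2 or 3 or tolerant replicate 1, 2 or 3 (adjusted p = 0.0673, 0.0736, 0.0744, 0.0615, 0.0553, 0.128 and 0.13, in that order). Sel1l fell 2.32-fold (-1.22 ± 0.23, SE; adjusted p = 0.00537) and 2.12-fold (adjusted p = 0.0146, lost without tolerant replicate 3 (adjusted p = 0.0615)). The size for Sel1l depended on the probe set: its 4 others changed by -0.81 to 0.09 against unstimulated cells, and with the mean of all 5 the adjusted p was 0.283 and, against 6 h, 0.378.

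Syvn1, the HRD1 ligase itself, Derl1, a channel component, and Edem2, a mannosidase that marks glycoproteins for disposal, each carried a wide gap between replicate 1 and the others. Syvn1 read 10.04, 8.62 and 8.51 unstimulated, 9, 8.28 and 8.56 at 6 h and 8.78, 7.78 and 7.85 in tolerant cells. Derl1 read 11.12, 11.90 and 11.90, 10.84, 11.69 and 11.97 and 10.58, 11.46 and 11.53, with replicate 1 low, and Edem2 read 8.27, 7.40 and 6.74, 8.08, 6.72 and 6.73 and 7.84, 6.61 and 6.60, with replicate 1 high. In all 3 genes every tolerant array was below the unstimulated array of its number, and the ranges overlapped. The tolerant changes against unstimulated cells were -0.92 for Syvn1 (adjusted p = 0.154, or 0.00578 with the replicate block), -0.45 for Derl1 (adjusted p = 0.416, or 0.0176 with the replicate block) and -0.46 for Edem2 (adjusted p = 0.565, or 0.0423 with the replicate block). From replicates 2 and 3 only, Syvn1 passed (adjusted p = 0.0111), and Derl1 and Edem2 did not (adjusted p = 0.0639 and 0.139). Edem1, from 8.03 to 8.33 over the 9 arrays, and Derl2, from 9.37 to 9.94, passed in no comparison.

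Of the 3 sensor genes and Xbp1, Atf6 alone was called with all 9 arrays and no block. Xbp1, whose mRNA IRE1 splices, read 11.80, 11.80 and 11.74 unstimulated, 11.81, 11.73 and 11.80 at 6 h and 11.90, 11.79 and 11.84 in tolerant cells. All 9 arrays thus lay within 11.73 to 11.90, and the 95% confidence intervals of its log2 change were -0.30 to 0.30 at 6 h and -0.23 to 0.36 in tolerant against unstimulated cells. Its 3 further probe sets changed by -0.37 to -0.14 in the latter. Splicing of Xbp1, cleavage of ATF6 and phosphorylation of PERK are not measured by these values. Atf6 read 7.26, 6.73 and 6.87, 6.99, 7.29 and 7.33 and 7.42, 7.69 and 7.70, the tolerant arrays being the highest of the 9. It rose 1.57-fold against unstimulated cells (0.65 ± 0.19, SE; adjusted p = 0.0354), with 0.58 to 1.25 on its 2 further probe sets. The call of Atf6 was lost without unstimulated replicate 2 or 3 or tolerant replicate 2 or 3 (adjusted p = 0.13, 0.0953, 0.121 and 0.117, in that order) and after quantile normalization (0.0718).

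Ern1 read 7.11, 6.70 and 6.58 unstimulated, 6.83, 6.35 and 6.66 at 6 h and 7.35, 7.04 and 7.27 in tolerant cells, where every array was above its same-numbered partners. Its changes of 0.42 against unstimulated (adjusted p = 0.154, or 0.0333 with the replicate block) and 0.61 against 6 h (adjusted p = 0.084, or 0.0116 with the replicate block) passed with the block and from replicates 2 and 3 only (adjusted p = 0.0492 and 0.0355), whereas the 1 further probe set of 4 that reached the level minimum changed by 0.00 and -0.11. Eif2ak3 read 8.40, 7.76 and 7.31, 8.64, 7.68 and 7.66 and 8.09, 7.46 and 7.12, with replicate 1 highest in each condition. The tolerant change of Eif2ak3 was -0.26 against unstimulated (adjusted p = 0.656) and -0.43 against 6 h (adjusted p = 0.527, or 0.0371 with the replicate block).

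ER genes with and without an ERSE in their window both had medians below 0 in the 2 comparisons with tolerant cells. The 8 ER genes with the element had a median log2 change of -0.52 in tolerant against unstimulated cells, 2 of them called lower (6 lower and 1 higher with the block), and -0.74 against 6 h, 4 called lower (5 with the block). The 14 ER genes with an entry but no ERSE had medians of -0.36 and -0.45, with 4 lower and 1 higher in the first comparison (7 and 2 with the block) and 4 lower in the second (8 lower and 1 higher with the block). Of all genes 12.2% were lower and 14% higher in the first (25.9% and 22.7% with the block), and 6.02% and 7.1% in the second (15.7% and 16%). The difference between these groups was not tested. Herpud1 and Dnajb11, the 2 genes with an ERSE-II, both fell in both comparisons. They are counted among the 14 genes without an ERSE and are among the 4 called lower there in each comparison. At 6 h the block called 3 of the 8 ERSE genes higher, Canx, Dnajc3 and Hsp90b1, and 2 of the 14 without the element, beside 11.6% of all genes.

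The largest change among the cytosolic genes was that of Hspa4l. Hspa4l (APG-1), an HSP110-type nucleotide exchange factor for HSP70, read 7.52, 7.59 and 7.71 unstimulated, 8.52, 8.67 and 8.25 at 6 h and 9.82, 9.93 and 9.95 in tolerant cells. Its 3 groups did not overlap, with 6 h in the middle. Hspa4l rose 4.89-fold in tolerant against unstimulated cells (2.29 ± 0.16, SE; adjusted p = 9.53e-05) and 2.67-fold against 6 h (adjusted p = 0.000719), and both calls held when any 1 array was left out. At 6 h the change was 0.87 (adjusted p = 0.111, or 0.0312 with the replicate block, and 0.0232 without 6 h LPS replicate 3). Its 4 further probe sets all pointed the same way, by 2.03 to 2.80 in tolerant and 1.14 to 1.28 in 6 h against unstimulated cells.

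Hspa4 (APG-2), of the same family, gave a result that hung on the probe set. The one used read 10.31, 10.20 and 10.16 unstimulated, 10.48, 10.58 and 10.52 at 6 h and 11.25, 11.08 and 11.11 in tolerant cells, 3 groups without overlap. On it Hspa4 rose 1.9-fold against unstimulated (0.92 ± 0.14, SE; adjusted p = 0.00202) and 1.54-fold against 6 h (adjusted p = 0.018, lost without tolerant replicate 1, 2 or 3 (adjusted p = 0.0635, 0.0594 and 0.0619, in that order)). Its 2 further probe sets above the level minimum changed by -0.67 and -0.54 against unstimulated cells and by -1.97 and -0.99 against 6 h, so the direction of Hspa4 in tolerant cells is uncertain. Hsph1 (HSP105) stayed between 9.95 and 10.90 with overlapping groups and passed in no comparison (adjusted p = 0.741 in tolerant against unstimulated cells).

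Of the HSP70 genes proper Hspa8 passed neither with nor without the block, and Hspa1b was called lower in some of the fits. Hspa8, the constitutive HSC70, read 14.09, 14.28 and 14.23 unstimulated, 14.02, 14.34 and 14.32 at 6 h and 13.99, 14.13 and 14.15 in tolerant cells, and its change of -0.11 in tolerant cells had a 95% confidence interval of -0.46 to 0.24. The stress-inducible Hspa1b read 8.76, 9.78 and 9.93, 7.62, 9.35 and 9.63 and 7.61, 9.19 and 9.08, with replicate 1 more than 1 log2 unit below the others in all 3 conditions. Its changes were -0.63 at 6 h (adjusted p = 0.562, or 0.0426 with the replicate block) and -0.87 in tolerant cells (adjusted p = 0.333, or 0.00536 with the replicate block), the latter passing also from replicates 2 and 3 only (adjusted p = 0.0135) and with the mean of probe sets (-0.94, adjusted p = 0.00457). Both changes were below 0 in all 3 same-numbered pairs. Hspa1a and Hspa1b are near-identical copies that probe sets may not separate, so the low Hspa1a and the measured Hspa1b are uncertain as to gene.

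The J-domain partners of HSP70 were not called with all 9 arrays and no block, and with the block were called in both directions. Dnaja1 (HSP40 of type I) read 10.06, 10.53 and 10.70 unstimulated, 10.87, 11.57 and 10.81 at 6 h and 10.68, 11.03 and 10.85 in tolerant cells, its 6 h arrays lying above all unstimulated ones, with a 6 h change of 0.65 (adjusted p = 0.172, or 0.0405 with the replicate block). Dnajb1 (HSP40), the classic heat-shock co-chaperone, read 9.70, 10.46 and 10.47, 8.77, 9.89 and 10.26 and 9.03, 9.70 and 9.70, lower at 6 h and in tolerant cells than unstimulated in all 3 same-numbered pairs. The changes of Dnajb1 were -0.57 at 6 h (adjusted p = 0.413, or 0.045 with the replicate block) and -0.73 in tolerant cells (adjusted p = 0.208, or 0.00833 with the replicate block, and 0.0126 from replicates 2 and 3 only), where its other probe set changed by 0.26. Dnajb4 (7.77 to 9.42 over the 9 arrays) and Bag3, the HSP70 exchange factor of selective autophagy (6.51 to 7.61), passed in no comparison.

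Of the HSP90 system the inducible chaperone gene Hsp90aa1 and the co-chaperone gene Chordc1 rose. Hsp90aa1 read 11.68, 11.67 and 12.05 unstimulated, 12.65, 12.85 and 11.97 at 6 h and 12.61, 12.85 and 12.74 in tolerant cells. Its tolerant arrays lay above all unstimulated ones, and 6 h LPS replicate 3 lay among the unstimulated values, with a 6 h change of 0.69 (adjusted p = 0.148). Hsp90aa1 rose 1.91-fold in tolerant against unstimulated cells (0.94 ± 0.24, SE; adjusted p = 0.0202), with 1.30 to 1.67 on the 2 further probe sets, of 4, that reached the level minimum, and the call was lost without unstimulated replicate 1 or 2 or tolerant replicate 2 or 3 (adjusted p = 0.0608, 0.0758, 0.0771 and 0.0635, in that order) and from replicates 2 and 3 only (0.0505). Chordc1 (CHORD-containing protein 1, which binds HSP90) read 8.02, 8.39 and 8.77, 9.37, 9.76 and 8.90 and 9.15, 9.37 and 9.28, with both later groups above the unstimulated one. It rose 1.83-fold in tolerant cells (0.87 ± 0.26, SE; adjusted p = 0.0354), a call lost without unstimulated replicate 1 or 2 or tolerant replicate 1, 2 or 3 (adjusted p = 0.107, 0.0958, 0.0576, 0.114 and 0.0969, in that order), from replicates 2 and 3 only (0.0878) and under both rescalings (0.057 after quantile normalization and 0.0588 with medians set equal). The 6 h change of Chordc1 was 0.95 (adjusted p = 0.117, or 0.0337 with the replicate block, and 0.0369 without 6 h LPS replicate 3).

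The remaining HSP90 co-chaperones were not called in any comparison, with or without the block. Ahsa1, which stimulates the HSP90 ATPase, ranged over 9.86 to 10.36, Stip1 (HOP), which links HSP70 to HSP90, over 9.93 to 10.55, and the immunophilin gene Fkbp4 over 10.20 to 11.70. In Fkbp4 the whole range was the gap between replicate 1 (11.58 to 11.70) and the other arrays (10.20 to 10.56). The tolerant changes against unstimulated cells were -0.21, -0.06 and -0.15 (adjusted p = 0.348, 0.814 and 0.859).

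**Figure D3:**
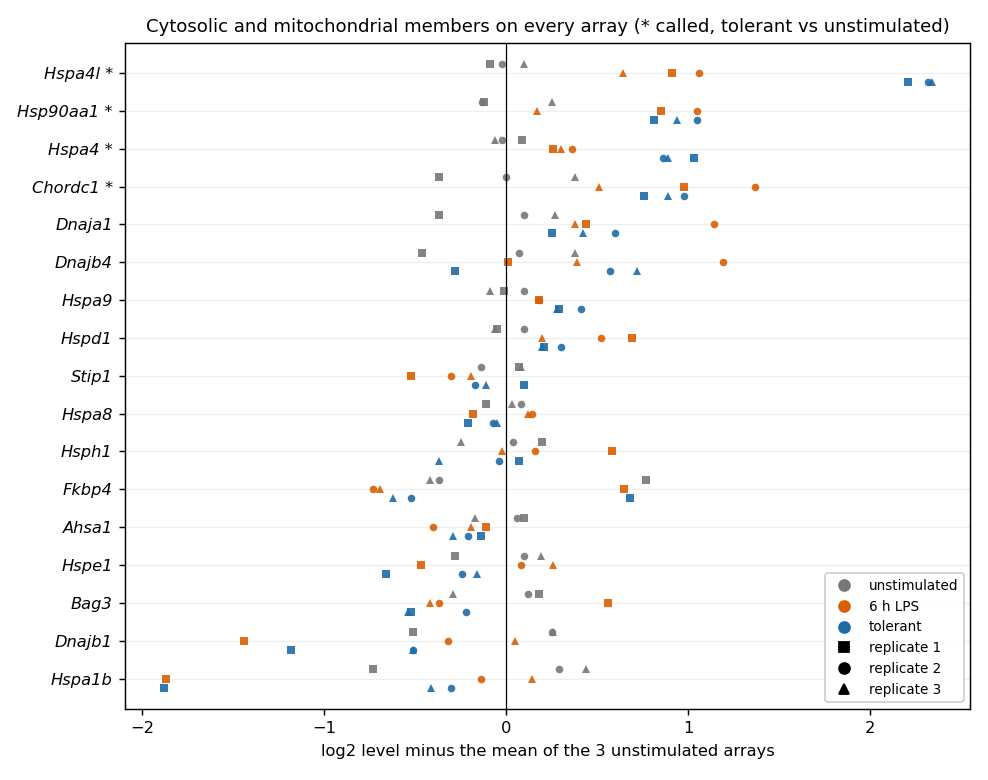
Log2 level of the 14 cytosolic and 3 mitochondrial genes on each of the 9 arrays, minus the mean of the 3 unstimulated arrays of that gene (x axis); colours mark the condition, shapes the replicate number, and an asterisk the 4 genes called between tolerant and unstimulated cells. Hspa4l stands apart in tolerant cells at 2.29, and in Hspa1b, Dnajb1 and Fkbp4 replicate 1 lies away from replicates 2 and 3.

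The mitochondrial chaperonin pair and the mitochondrial HSP70 were not called in the fit of all 9 arrays with no block. Hspd1 (HSP60) read 12.04, 12.19 and 12.03 unstimulated, 12.78, 12.61 and 12.29 at 6 h and 12.30, 12.39 and 12.29 in tolerant cells, both later groups lying above the unstimulated one, and Hspe1 (HSP10) read 12.10, 12.48 and 12.57, 11.91, 12.46 and 12.64 and 11.72, 12.14 and 12.22, with overlapping groups. The changes were 0.47 for Hspd1 at 6 h (adjusted p = 0.15, or 0.0436 with the replicate block) and -0.36 for Hspe1 in tolerant cells (adjusted p = 0.315, or 0.0373 with the replicate block). Hspa9 (mortalin) read 11.89, 12 and 11.81, 12.08, 12.08 and 12.08 and 12.19, 12.31 and 12.18, 3 groups without overlap. Its tolerant change against unstimulated cells was 0.33 (adjusted p = 0.107, or 0.0436 with the replicate block), and it passed without the block under trended and robust eBayes (adjusted p = 0.0424) and without a level minimum (adjusted p = 0.0115).

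**Figure D4:**
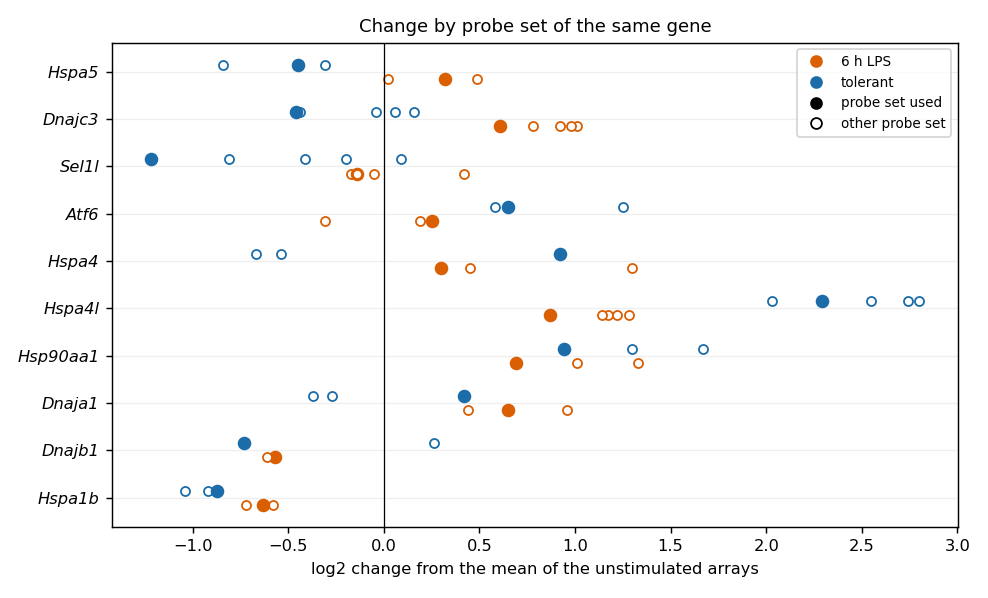
Log2 change from the mean of the unstimulated arrays (x axis) for each probe set of 10 genes, at 6 h and in tolerant cells; filled circles are the probe set used, open ones the gene's further probe sets above the level minimum. All 5 probe sets of Hspa4l lie above 0 in both conditions, whereas in tolerant cells those of Hspa4, Dnaja1 and Dnajb1 lie on both sides of 0.

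Related genes of the same processes, taken from 7 further lists, were not called at 6 h in any list without the block, and in tolerant cells had calls in both directions or 1. The counts in tolerant against unstimulated cells are to be read against 14% of all genes higher and 12.2% lower (22.7% and 25.9% with the block) and a median of -0.07. Of 16 tested genes of the ER translocon and signal peptidase 3 rose and 1 fell against unstimulated cells (3 and 7 with the block; median -0.28): Sec63 and Sec62, of the post-translational import channel, rose 1.97-fold and 1.95-fold (adjusted p = 0.0105 and 0.0121), and the channel subunit gene Sec61b fell 1.95-fold (adjusted p = 0.00313). Of 21 ER oxidoreductases, prolyl isomerases and co-chaperones 2 rose and 2 fell (4 and 7 with the block; median -0.31). Ero1a and Ero1b, which encode the oxidases that recharge disulfide isomerases, were the ones that rose (2.12-fold, adjusted p = 0.00557, and 1.82-fold, adjusted p = 0.0054), and Sec24d, a coat component of ER export vesicles, fell 2.13-fold (adjusted p = 0.00682).

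Of 21 further ERAD genes 1 rose and 3 fell (2 and 7 with the block; median -0.03). Ubxn2a, which encodes a p97 cofactor, rose 4.04-fold (adjusted p = 0.00125), and the ER membrane protein gene Selenos fell 2.05-fold (adjusted p = 0.00113), as did Os9, the lectin that hands glycoproteins to the HRD1 ligase (1.62-fold, adjusted p = 0.0478). Among 15 transducers and PERK output genes 2 rose and 3 fell (5 and 4 with the block; median -0.13). Ddit3 (CHOP), a PERK output, stood at 7.74 ± 0.11 unstimulated, 7.61 ± 0.39 at 6 h and 9.97 ± 0.19 in tolerant cells (SD, n = 3) and rose 4.69-fold against unstimulated cells (adjusted p = 0.000276). Atf4, Trib3 and Ppp1r15a of the same PERK output changed by -0.30, 0.44 and 0.85 log2 in that comparison. Their adjusted p was 0.152, 0.61 and 0.392, or 0.0635, 0.0864 and 0.0163 with the replicate block, so Ppp1r15a passed with it. Mbtps2, the site-2 protease that cleaves ATF6, rose 2.4-fold (adjusted p = 0.0226), whereas Mbtps1, the site-1 protease that cuts it first, fell 1.84-fold (adjusted p = 0.0372). Atf4, Trib3, Ppp1r15a and Mbtps1 are named after their values were seen. Creb3, an ER-anchored transcription factor, fell 2.44-fold (adjusted p = 0.0187).

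In the cytosol, 2 of 14 TRiC chaperonin and prefoldin genes rose and 1 fell (3 and 1 with the block; median 0.02), the prefoldin genes Vbp1 (2.25-fold, adjusted p = 0.00173) and Pfdn4 (1.63-fold, adjusted p = 0.0128) upward and the chaperonin subunit gene Cct3 downward (-0.54 log2, adjusted p = 0.0169). Of 29 other genes of the cytosolic HSP70 and HSP90 machinery 2 rose and 2 fell (3 and 7 with the block; median -0.13). Hspa2, another HSP70 gene, fell 2.95-fold (adjusted p = 0.00127), and Hspb2, a small heat-shock protein gene, and the ribosome-associated Dnajc2 rose 1.93-fold and 1.67-fold (adjusted p = 0.0065 and 0.023). Of 12 mitochondrial chaperone and protease genes Grpel2, an exchange factor of mortalin, rose 1.77-fold (adjusted p = 0.0397), 0 fell, and the block gave 4 and 2 (median 0.07). Against 6 h, these 7 lists had between 0 and 2 genes higher and between 0 and 3 lower without the block. In that comparison 7.1% of all genes were higher and 6.02% lower. With the block the lists had between 1 and 4 higher and between 0 and 7 lower, beside 16% and 15.7% of all genes.

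**Figure D5:**
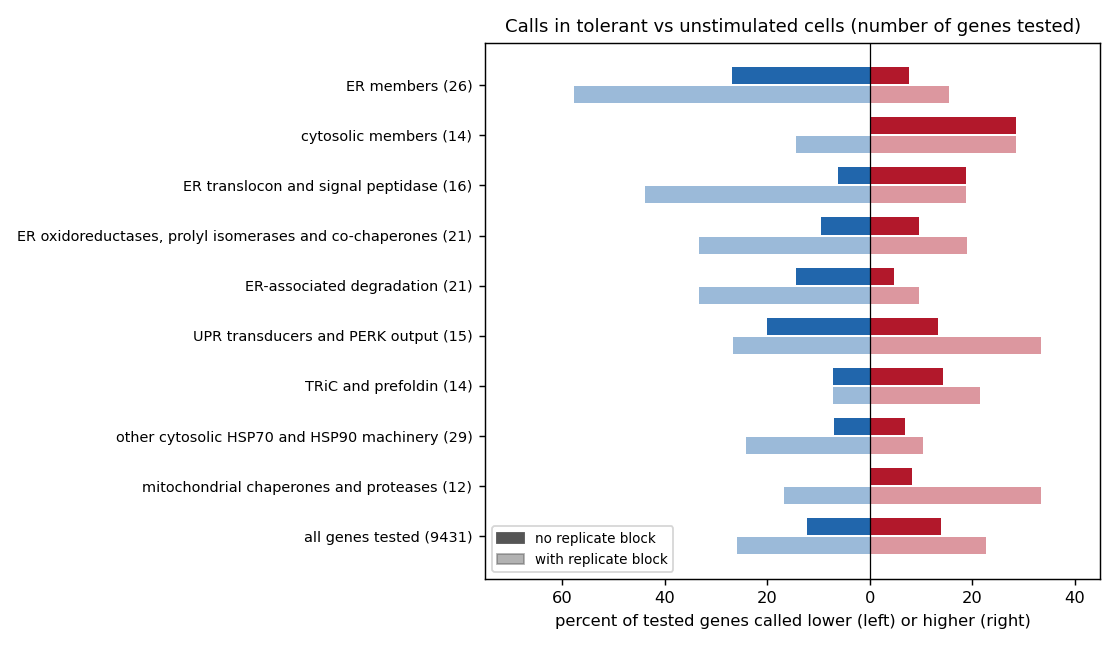
Percent of tested genes called lower (left, blue) or higher (right, red) in tolerant against unstimulated cells, for the ER and cytosolic genes described here, the 7 further lists and all 9431 genes; dark bars are without and light bars with the replicate block, and the number tested is in brackets. The ER genes have 7 of 26 lower without the block, beside 12.2% of all genes.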

How the data were processed

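Total RNA of 9 cultures was labelled with biotin and read on Affymetrix mouse arrays. The authors deposited linear intensity values, 1 per probe set and array. Per the submitters' processing notes they come from GCRMA, with its version and the genome build not given in the sources used here. This method removes a modelled background and scales arrays to each other, which leaves low values near a floor where they have no order. Precision is limited by the number of arrays. The medians over the tested genes were log2 7.62 to 7.84, and no 2 arrays of a condition shared more than 117 identical values among the genes compared.

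What follows was computed here with limma 3.58.1 in R 4.3.3, on log2 of the deposited values with no pseudocount. Of 45101 probe sets, 64 were controls, 34945 had 1 gene symbol in the platform annotation, 932 had several and 9160 none; those with 1 symbol were used. Where a gene had several, the one with the highest mean over 9 arrays was taken, and the gene was tested where it reached log2 4 on at least 3 arrays, which 9431 of 18193 genes did (51.8%). A mean per condition was fitted with lmFit over all 9 arrays (6 residual degrees of freedom, 4 with the replicate block), followed by eBayes and two-sided tests. P-values were adjusted by Benjamini-Hochberg over all 9431 genes, for the 3 comparisons separately, and called under 0.05. The fit without the block was tested on simulated data with independent spread on each array, and so without the shared deviation of replicate 1. The blocked fit, the choice of probe set and the motif search were not tested in this way. Promoter sequences came from RefSeq.

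The labels number the replicates 1, 2 and 3 in every condition without saying what a number shares. Same-numbered arrays of different conditions correlated at 0.157 to 0.844 in their deviations from the condition means, every pair above the 0.1 set for pairing, so blocked values are printed where they change a call. Arrays of replicates 2 and 3 with different numbers correlated as much (0.214 to 0.731), so the check rests on replicate 1. No slide or scan date was used.

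The members and lists were chosen with earlier results of these data known. Values on every array are given for each member called with or without the block and for the sensors and main HSP70 genes, and the others by range. Of each further list at most 3 called genes with the largest tolerant change are named. Alternatives covered the level minimum, the probe set rule, normalization, eBayes settings, the arrays fitted, the replicate block and each array left out in turn.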

Additional observations from a re-analysis of the deposited data

Results flagged for a closer look

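Of the 43 genes tested, 11 differed between the 2 times after LPS, that is, between tolerant cells and cells at 6 h, by limma's test with adjustment over all genes. This single contrast is the test of that difference. In it 6.02% of all genes tested were called lower in tolerant cells, 7.1% higher and 13.1% either. For 9 ER genes the log2 change from 6 h to the tolerant state was below 0: Sdf2l1 at -1.29, Dnajb11 at -1.11, Sel1l at -1.08, Dnajc3 at -1.07, Manf at -0.98, Pdia6 at -0.78, Hspa5 at -0.77, Creld2 at -0.71 and Herpud1 at -0.63. For Hspa4l it was 1.42 and for Hspa4 0.62, the latter with 2 further probe sets at -1.97 and -0.99. The 4 further probe sets of Sel1l ranged from -1.24 to 0.23, and with the mean of probe sets its adjusted p was 0.378. With any 1 array left out, the calls of Dnajb11 and Hspa4l held throughout.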

How the results depend on the processing

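The member results counted here are those called under any setting. Of their values under alternatives, 967 kept their direction and side of the threshold, which includes values not called either way. Only results called as reported could lose the call, which 79 values did, and 54 gained it. In direction 2 reversed: the mean of probe sets gave Hspa4 changes of -0.10 (adjusted p = 0.866) against unstimulated cells and -0.78 (adjusted p = 0.187) against 6 h. With the replicate block, calls at 6 h were 2267 over all genes, 5 of ER and 5 of cytosolic genes, in tolerant against unstimulated cells 4586 and 19 of ER genes, and against 6 h 2985 and 15. Replicates 2 and 3 only gave 14 ER calls in each comparison with tolerant cells. Over all genes they gave 3608 against unstimulated cells and 2126 against 6 h. Without a level minimum, which puts 18193 genes in the adjustment, 37 genes were called at 6 h. In tolerant against unstimulated cells that setting called 2 of 17 cytosolic genes and 1911 over all genes. The mean of probe sets gave 12 genes at 6 h, and in tolerant against 6 h 1 cytosolic gene among 1313 over all genes. A fit of the tolerant and 6 h arrays alone also gave 1 cytosolic gene, among 853 over all genes. Leaving out 1 array at a time, calls at 6 h ran from 5 to 696 over all genes, from 0 to 1 for ER and from 0 to 3 for cytosolic genes. In tolerant against unstimulated cells they ran from 1400 to 2908, 6 to 10 and 2 to 4, and against 6 h from 677 to 1282, 1 to 9 and 1 to 2. With 2 arrays left in a condition, its spread is taken from the pooled estimate. The cause of these differences was not tested. GCRMA values near log2 4, as for Sdf2l1 in tolerant cells, limit the sizes given.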
